A study of Mus musculus with 12 samples.

Results

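The adult H4K8ac landscape described here consists of 37086 genomic regions. The mark, H4K8ac, is histone H4 acetylated at lysine 8, and it was mapped by ChIP-seq (chromatin immunoprecipitation with sequencing) in oligodendrocyte progenitor cells (OPCs) of adult mice. The authors' peaks of the 3 adult libraries were merged wherever they overlapped by at least 1 bp, which gave 93007 regions, and the 37086 regions (39.9%) with a peak in every library were kept. With the other age of the series included, the same merging gave 98027 regions. The members were thus chosen by the peak calls themselves, and every value below is a description of those calls without a test.

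The cells came from the forebrain of PdgfrαH2BEGFP mice, which carry a nuclear green fluorescent protein reporter tied to Pdgfra, and they were sorted at postnatal day 60. All 3 libraries share this genotype, age and tissue, are labelled as biological replicates 1 to 3, and were made with antibody 61103 of Active Motif from chromatin crosslinked with 1% paraformaldehyde. From 2 ng of immunoprecipitated DNA each library was built. Selection by a Pdgfra reporter limits the cells to those that carry the reporter protein, and the number of animals behind each library is not given in the sources used here. The series holds 12 samples. Neither the input libraries nor the younger progenitors were read here for any value about the kept regions. Whether the authors' peak calls and folds used the input libraries is not given in the sources used here.

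OPCs are glial cells that persist in the adult brain, divide slowly and give rise to oligodendrocytes, the cells that wrap axons in myelin. Acetylation of lysines in the tail of histone H4 is written by acetyltransferases, removed by histone deacetylases and bound by proteins with bromodomains, and it is found at active promoters and enhancers. Some genes carry the mark in a short block around the transcription start, and others carry it in long or repeated blocks across the gene body and its flanks.

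The start regions of 5 genes show the range of sequence over which the mark was or was not found. Each window runs from 250 bases before to 50 bases after a start, is taken from RefSeq (GRCm38.p6), and is written 5′ to 3′ on the gene's own strand with every CG dinucleotide in capitals. Dennd6a (chr14:26579300-26579599, plus strand) and Ralgds (chr2:28512917-28513216, plus strand) stand for promoter-only genes with a high fold and with a wide block. Mog (chr17:37023349-37023648, minus strand), Opalin (chr19:41077064-41077363, minus strand) and Pdgfra (chr5:75152001-75152300, plus strand) are lineage genes.
Dennd6a: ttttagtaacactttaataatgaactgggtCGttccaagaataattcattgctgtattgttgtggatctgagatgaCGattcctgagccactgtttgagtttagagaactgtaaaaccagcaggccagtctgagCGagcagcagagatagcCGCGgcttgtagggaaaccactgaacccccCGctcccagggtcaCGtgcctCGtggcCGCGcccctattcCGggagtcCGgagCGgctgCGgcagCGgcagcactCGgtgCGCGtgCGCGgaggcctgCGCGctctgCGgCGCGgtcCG
Ralgds: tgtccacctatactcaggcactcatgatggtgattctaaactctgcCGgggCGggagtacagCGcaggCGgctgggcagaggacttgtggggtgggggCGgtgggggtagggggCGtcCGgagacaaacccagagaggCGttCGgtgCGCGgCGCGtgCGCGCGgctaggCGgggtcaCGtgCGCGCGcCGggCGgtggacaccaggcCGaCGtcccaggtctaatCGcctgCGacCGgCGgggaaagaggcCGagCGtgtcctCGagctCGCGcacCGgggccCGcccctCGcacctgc
Mog: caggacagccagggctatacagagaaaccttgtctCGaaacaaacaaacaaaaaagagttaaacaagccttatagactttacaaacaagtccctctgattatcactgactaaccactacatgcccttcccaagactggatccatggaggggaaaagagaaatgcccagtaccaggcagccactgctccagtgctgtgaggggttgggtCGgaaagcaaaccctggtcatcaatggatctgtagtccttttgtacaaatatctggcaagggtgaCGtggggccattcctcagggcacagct
Opalin: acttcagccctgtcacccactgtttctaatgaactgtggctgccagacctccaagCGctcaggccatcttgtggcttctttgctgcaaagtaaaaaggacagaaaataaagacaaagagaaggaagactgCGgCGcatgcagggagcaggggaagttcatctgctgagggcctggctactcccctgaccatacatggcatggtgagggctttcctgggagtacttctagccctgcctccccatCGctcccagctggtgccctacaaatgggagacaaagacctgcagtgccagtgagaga
Pdgfra: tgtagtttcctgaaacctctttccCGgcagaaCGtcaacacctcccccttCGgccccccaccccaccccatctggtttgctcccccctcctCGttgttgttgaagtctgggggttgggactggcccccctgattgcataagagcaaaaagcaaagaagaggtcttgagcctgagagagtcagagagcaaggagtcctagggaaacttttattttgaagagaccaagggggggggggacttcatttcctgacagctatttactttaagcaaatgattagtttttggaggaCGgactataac
The Dennd6a window held 26 CG dinucleotides and the Ralgds window 37, which put their observed-to-expected ratios at 1.02 and 1.00. Only 3 were present in the Mog window, 4 in the Opalin window and 5 in the Pdgfra window, with ratios of 0.171, 0.181 and 0.256. Peaks of replicates 1, 2 and 3 covered 57, 300 and 300 of the 300 bases at Dennd6a and 300, 278 and 300 at Ralgds. At Opalin all 300 bases were covered in each library, at Mog 111, 111 and 147 bases, and at Pdgfra none. Coverage at these starts was thus found both in windows rich and in windows poor in CG.

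The 3 libraries did not weigh equally in the lists. Peak numbers were close, at 72278, 72661 and 77002 for replicates 1, 2 and 3, but the bases under them were 41.9, 44.3 and 60.9 Mb. Replicate 3 stood apart with the longest peaks, a median of 440 bp against 359 and 371 bp, and with 21540 regions of its own against 9473 and 8759. Kept regions held 75.2%, 73.5% and 53.8% of each library's peaks and 90.0%, 89.4% and 81.4% of its peak bases. Read depth is not given in the sources used here, so a longer list cannot be told apart from a deeper library. In a sorted population, fewer cells with the mark and less mark per cell cannot be told apart either.

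The kept regions spanned 54.1 Mb, of which the libraries' own peaks covered 37.7, 39.6 and 49.6 Mb (42.3 ± 6.41 Mb, mean ± SD, n = 3). The median kept region was 1046 bp wide (quartiles 652 and 1686 bp). Just outside the rule lay 16149 regions with peaks in 2 libraries, of median width 398 bp, and farther out 39772 regions seen in 1 library, of median width 206 bp. The authors' median fold enrichment in replicate 1 was 6.14 in kept regions, 3.98 in regions shared with 1 other library and 3.61 in regions of its own. Replicates 2 and 3 gave the same order, with 5.67, 3.83 and 3.68 in replicate 2 and 5.97, 3.76 and 3.31 in replicate 3. Promoters made up 53.3% of the kept regions but 29.5% of those in 2 libraries and 27.5% of those in 1, where introns were the leading class at 44.0% and 46.4%. Regions outside the rule were on the whole narrow and of low fold, and introns were their largest class without being the majority. A merged region spans all its peaks and takes the fold of the highest peak per library. The orders of width and fold thus follow in part from the merging and the rule.

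Promoters were the leading class among the kept regions. By the authors' annotation 19775 regions (53.3%) were promoters, meaning within 3 kb of a transcript start, 9269 (24.99%) lay in introns, 6056 (16.3%) were distal intergenic and 1125 (3.03%) were exonic. The 3′ UTR class held 696 regions (1.88%), the 5′ UTR class 121 (0.326%) and the class just downstream of genes 44 (0.119%). Counted over each library's own peaks in kept regions, promoters took 49.6 ± 2.24%, introns 28.9 ± 2.35% and distal peaks 16.8 ± 0.324% (SD, n = 3). The classes also differed in how often a merged adult region was seen in all 3 libraries. This share was 61.1% for the 5′ UTR class and 55.8% for promoters (19775 of 35451), against 33.3% for distal and 26.6% for intronic regions. Widths of the merged regions hardly separated the main classes, with medians of 1075 bp for promoters, 1002 bp for introns and 959 bp for distal regions. The bases that each library covered per region differed more. Medians in replicates 1, 2 and 3 were 772, 751 and 964 bp for promoters. They were 516, 578 and 878 bp for introns and 543, 609 and 832.5 bp for distal regions.

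The authors' fold separated the main classes as well. The median promoter region reached 8.16, 6.83 and 7.30 in replicates 1, 2 and 3, a mean of 7.43 ± 0.676. Introns reached 4.92 ± 0.0877 and distal regions 5.11 ± 0.0584, and promoters were higher in 3 of 3 libraries. The 5′ UTR class lay between at 6.38 ± 0.0779 and was the class with the largest share of regions over 5 kb, 13.2% against 2.93% of promoters. The high promoter fold was found close to the start, since the 16736 promoter regions within 1 kb had 8.12 ± 0.844, whereas the 1591 at 1 to 2 kb had 4.93 ± 0.122 and the 1448 at 2 to 3 kb had 5.00 ± 0.125. Past 1 kb, promoter regions thus had folds in the range of intronic and distal ones.

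**Figure D1:**
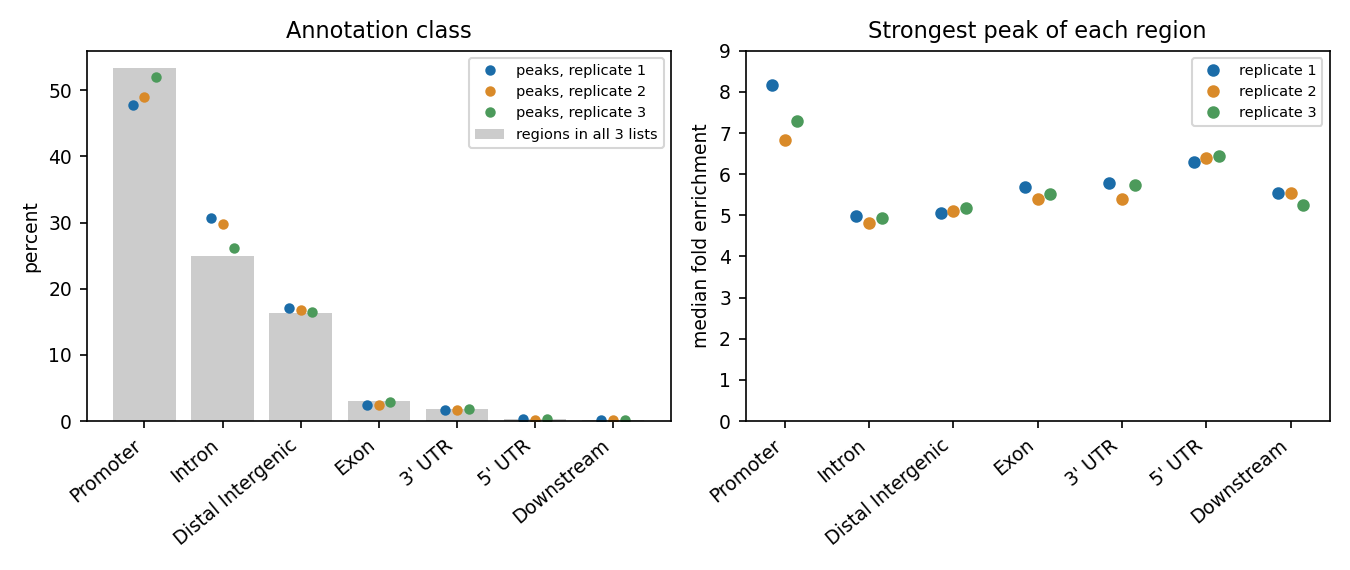
The plot by annotation class shows the percentage of kept regions (grey bars) and of each library's own peaks in them (points) on the left, and the authors' median fold enrichment of each region's strongest peak per library on the right. Promoters lead on both, with 53.3% of regions and a fold of 7.43 ± 0.676 (SD, n = 3).

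Around starts the mark reached farther into the gene than away from it. Of the promoter regions 12162 (61.5%) lay over a start. The peaks over a start extended a median of 569, 546 and 678 bp downstream in replicates 1, 2 and 3, against 280, 264 and 419 bp upstream. In 74.5%, 73.4% and 71.1% of them the downstream arm was the longer (73.0 ± 1.75%, SD, n = 3). Among intronic regions, 3542 (38.2%) lay in the first intron of their transcript. Distal regions were a median of 17.4 kb from the assigned start (quartiles 8.46 and 35.4 kb), and 265 of them (4.38%) lay farther than 100 kb.

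Chromosome X carried few kept regions. It held 577, or 59.7 per 100 RefSeq protein-coding genes, while the autosomes ranged from 128 on chromosome 7 to 245 on chromosome 18. Its regions were promoters in 71.8% of cases, and their median width of 761 bp lay under the autosomal range of 1009 to 1083 bp. The sex of the animals is not given in the sources used here, and its part in these values was not tested.

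The regions were assigned by the authors to 16300 genes, that of the nearest transcript start in each case. Of these genes 8996 had 1 kept region, 417 had 10 or more and 70 had 20 or more. A gene was called promoter-only where all its kept regions were promoters, and multi-region where it had 2 or more with at least 1 outside the promoter class. Promoter-only genes numbered 9665 (59.3%), of which 7338 had 1 region. Multi-region genes numbered 4977 (30.5%), of which 3742 also had a promoter region and 1235 had none. The other 1658 genes (10.2%) had 1 region outside the promoter class.

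The smaller multi-region group held most of the acetylated sequence. Its genes have 2 or more regions by definition, so a large share of bases and more bases per gene follow in part from that. The group held 61.5% of the kept regions, and promoter-only genes held 34.0%. It took 68.2% of the bases in kept regions and promoter-only genes 28.5%, and by each library's peaks the multi-region share was 66.1%, 67.7% and 68.5% (67.4 ± 1.20%, SD, n = 3). A promoter-only gene had a median of 944, 912 and 1135 covered bp in replicates 1, 2 and 3, and a multi-region gene 2814, 2982 and 3863 bp. The highest fold of a gene differed less, with medians of 9.80, 7.80 and 8.37 in promoter-only and 10.1, 8.94 and 9.5 in multi-region genes. Promoter regions compared with promoter regions gave the other order. Those of promoter-only genes had median folds of 8.49, 6.96 and 7.46, above the 7.49, 6.71 and 7.14 of multi-region genes in each library, while their median width was 986 bp against 1296 bp. Pooled over all their promoter regions, not matched for distance to the start, multi-region genes thus had wider promoter regions of slightly lower fold. By the highest fold over all regions of a gene, multi-region genes with a promoter region had medians of 11.9, 9.93 and 10.6. These were above the promoter-only medians in each library. A maximum over more regions tends to be higher, however, and these genes had a median of 3 regions against 1 in promoter-only genes.

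**Figure D2:**
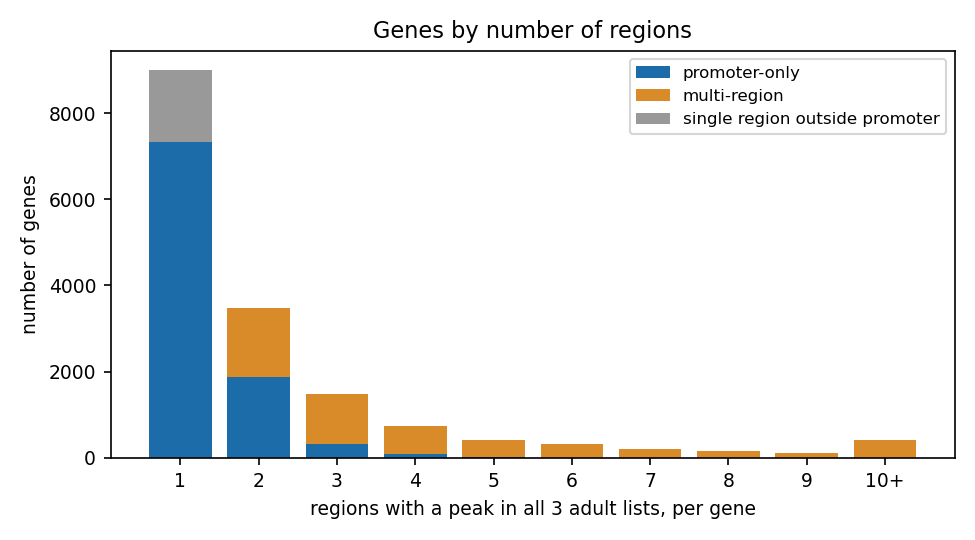
The plot of kept regions per gene counts genes by their number of regions, split into the promoter-only, multi-region and single non-promoter groups. Promoter-only genes fill the left end, with 7338 at 1 region, and the 417 genes with 10 or more regions are all multi-region.

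Gene length moved with the groups. Among protein-coding genes with a region, 14.7% of the 2649 genes under 10 kb were multi-region, 17.8% of the 3814 of 10 to 30 kb, 30.7% of the 3463 of 30 to 100 kb and 51.8% of the 1771 longer ones. Median RefSeq lengths were 19.2 kb for promoter-only genes and 41.4 kb for multi-region genes with a promoter region, but 3.45 kb for multi-region genes without one. A length was found for 9038 of 9665, 3341 of 3742 and 719 of 1235 genes of these sets, so the last median is the least complete. Only 16.1% of the multi-region genes without a promoter region were protein-coding, against 85.4% of promoter-only genes. The assigned gene of such a region is only the one with the nearest start, and examples inside larger genes are given below.

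Coverage was concentrated on few genes and ranked alike in the libraries. The top 1% of genes (163) took 13.3 ± 0.190% of the covered bases and the top 10% (1630) took 49.8 ± 0.695% (SD, n = 3). Of the 100 most covered genes in each library, 84 were shared by all 3 lists and 114 appeared in any. Across the 16300 genes, Spearman's rho of covered bases between libraries was 0.939 for replicates 1 and 2, 0.931 for 1 and 3 and 0.947 for 2 and 3. These genes were kept only where all libraries had a peak, and genes are not independent replicates.

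The 12 genes with the most regions had 33 to 49 each. Pde4b, a phosphodiesterase that breaks down cyclic AMP, had 49 kept regions, 42 of them intronic, and 51.5, 48.2 and 69.1 covered kb in replicates 1, 2 and 3. Tcf4, a basic helix-loop-helix partner of proneural and Olig factors, had 44 regions, 18 of them promoters at its many starts, with 44.5, 45.1 and 59.5 kb. Phactr3, a regulator of protein phosphatase and actin, had 43 regions with 59.0, 65.7 and 82.6 kb. In all of them replicate 3 was the highest, as it was for peak length in general.
Elmo1, which works with DOCK proteins to activate Rac, had 41 regions, and the kinase gene Sik3 had 38. Frmd4b had 37, Gse1 36, and Tmem132b, the focal adhesion gene Tns3, the cytoskeletal linker gene Dst and the long non-coding RNA gene Gm33819 had 33 each.

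By covered bases the order was another. Gm10532, a long non-coding RNA gene, came first by the mean with 73.3, 76.8 and 87.1 kb (79.0 ± 7.20 kb). Its 16 regions all overlap the protein-coding gene Ctif. Zeb2, a zinc finger homeobox repressor required for oligodendrocyte maturation, followed with 69.1, 71.7 and 92.7 kb (77.8 ± 13.0 kb) in 29 regions. Rnf220, a ubiquitin ligase, had 74.6 ± 11.9 kb in 27 regions, and Fam53b had 73.5 ± 7.72 kb in only 15, the widest of 22.2 kb.
Replicate 3 was the highest for each of these genes and carries much of their SD. Within every library Gm10532 was above Fam53b and Zeb2 was above Rnf220. In replicate 3, however, Zeb2 (92.7 kb) and Rnf220 (88.0 kb) were above Gm10532 (87.1 kb). Also among the 12 most covered genes were Phactr3 (69.1 ± 12.1 kb), Gse1 (65.1 ± 8.49 kb), the fibroblast growth factor receptor gene Fgfr2 (62.2 ± 8.87 kb) and Gm18671 (62.1 ± 4.81 kb, 13 of 22 regions overlapping Cdk19). Elmo1 (59.6 ± 16.1 kb) and Pde4b (56.3 ± 11.2 kb) belonged to the same set.

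Because the nearest start can belong to a small gene inside a larger one, the bases were also counted by position, within each RefSeq protein-coding gene and 3 kb of flank. This count was added after the assigned genes had been seen. Gse1 then led with 107, 117 and 136 kb in replicates 1, 2 and 3. Ctif (95.3 ± 9.32 kb), the G protein subunit gene Gnao1 (85.4 ± 11.3 kb) and the cell adhesion gene Dscaml1 (84.9 ± 11.99 kb) were also among the most covered. Kept regions filled 86.0% of this span at Fam53b and 68.3% at Zeb2. Gse1, Rnf220, Fam53b, Zeb2 and Phactr3 were among the 12 most covered genes by both counts.

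**Figure D3:**
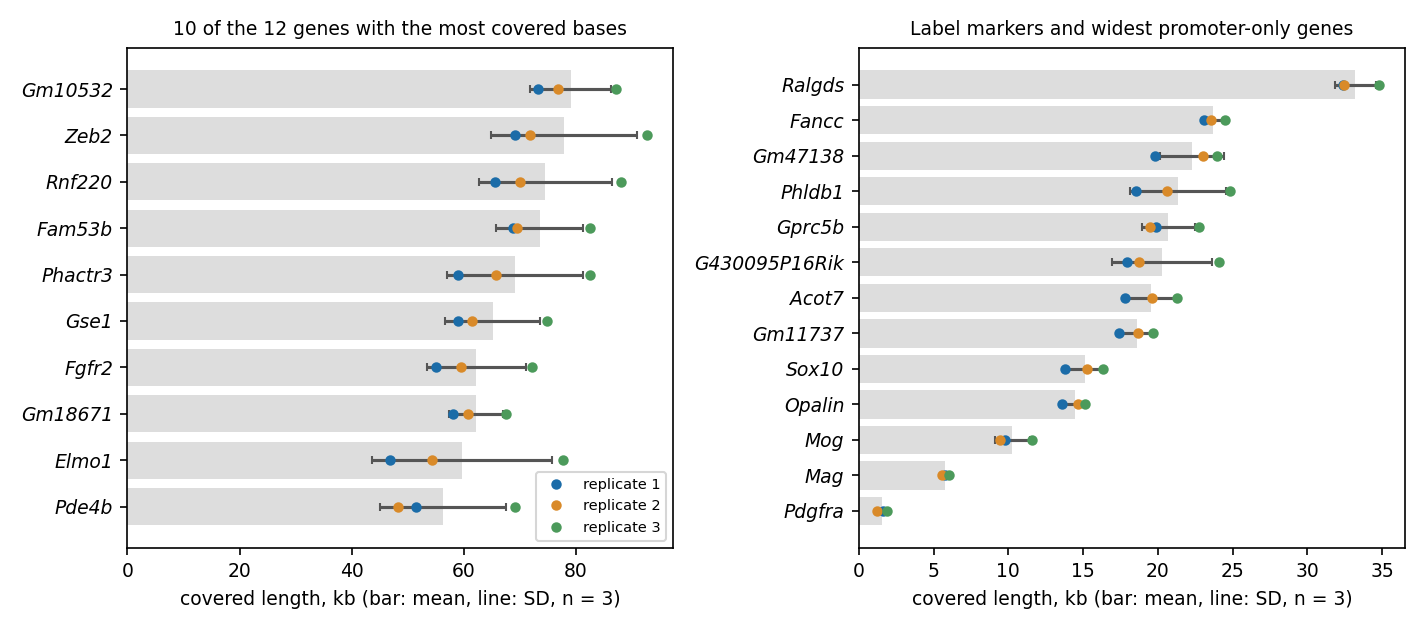
The plot of named genes gives covered length in kb for 10 of the 12 most covered genes (left) and for the label markers with the 8 widest promoter-only genes (right), as bars for the mean, lines for the SD (n = 3) and a point per library. Gm10532 (79.0 ± 7.20 kb) and Zeb2 (77.8 ± 13.0 kb) lead on the left, and on the right Pdgfra (1.56 ± 0.336 kb) is the lowest.

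Of the 8 multi-region genes without a promoter region that had the most regions, 4 had only distal ones or nearly so. Gm33819 had 33 regions over 15089002 to 15247050 of chromosome 3, of which 32 were distal, with 35.6, 36.2 and 46.4 covered kb. Gm42857 had 25 distal regions on chromosome 5 (35.6 ± 7.40 kb), Gm25693 had 16 on chromosome 11 (22.8 ± 3.98 kb) and Gm25888 had 15 on chromosome 12 (20.1 ± 3.69 kb). In none of these did a region overlap a RefSeq protein-coding gene, so they are clusters of acetylated intergenic blocks named by the nearest start. Of the others, 4833428L15Rik had 26 regions, all overlapping Dscaml1, 3300005D01Rik had 20 of 21 overlapping Zdhhc14, and Gm37624 had 21 intronic regions on chromosome 4. Gm18671 was mixed, with 9 distal, 8 intronic and 5 3′ UTR regions.

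Promoter-only genes could also be wide. Ralgds, an exchange factor for Ral GTPases, had 3 promoter regions with 32.4, 32.5 and 34.8 covered kb (33.2 ± 1.37 kb), the widest of 20.6 kb, each in the promoter class by the authors' annotation, which counts the start of any transcript of a gene. Its CG-rich start window is printed above. Fancc, of the Fanconi anaemia DNA repair pathway, had 23.7 ± 0.707 kb, Phldb1 21.3 ± 3.21 kb in 7 regions, the orphan receptor gene Gprc5b 20.7 ± 1.77 kb and the acyl-CoA thioesterase gene Acot7 19.6 ± 1.74 kb. Gm47138 (22.3 ± 2.17 kb, overlapping Foxn3), G430095P16Rik (20.3 ± 3.34 kb, overlapping Nfix) and Gm11737 (18.6 ± 1.16 kb, overlapping Cyth1) each had 1 region.

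The promoter-only genes of the highest fold were narrow by comparison. They were ranked by the lowest fold of the 3 libraries, so that 1 high library did not decide, and another ranking would order them differently. At Tbl1xr1, a transcriptional corepressor subunit, a region of 1.77 kb had folds of 28.6, 26.6 and 25.4 in replicates 1, 2 and 3. Dennd6a, an exchange factor for a Rab GTPase, had 27.6, 25.2 and 25.4 in 1.54 kb, and the repressor gene Bcl6 had 38.9, 24.98 and 27.1 in 3.02 kb. Kmt5b, a methyltransferase of histone H4, had 28.0, 23.9 and 26.5. All 4 had far fewer covered bases than Ralgds, so a high fold did not need a wide block.
Gal3st1, the sulfotransferase that makes the myelin lipid sulfatide, had folds of 31.3, 23.5 and 25.4 over 4 promoter regions with 7.01 ± 1.19 kb. Bri3 (24.6, 28.4 and 23.4), the nuclear receptor gene Nr2c2 (35.8, 23.3 and 24.9) and the zinc finger gene Vezf1 (30.2, 24.3 and 22.7) completed the 8.

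Single regions could be very wide in several classes. The widest promoter region, assigned to Gm48071, spanned 8319793 to 8351775 of chromosome 12 (32.0 kb), and the widest exonic one, at Amz1, spanned 140761563 to 140793491 of chromosome 5 (31.9 kb). The widest intronic and 5′ UTR regions were assigned to Gm26141 (25.8 kb) and Mir7001 (18.03 kb). At Gm8031 the widest distal region measured 16.7 kb, and at Mvk, an enzyme gene of cholesterol synthesis, the widest downstream one measured 8.70 kb. The distal region of the highest fold, again by the lowest of the 3 libraries, 9.28 kb on chromosome 4 from 8908299 to 8917581 and assigned to the pseudogene Rps18-ps2, had 27.8, 19.7 and 26.7.
By the lowest fold of the 3 libraries, the intronic class was led by a region of 1.79 kb at Hivep2 (19.2, 19.6 and 20.03), the exonic class by 5.75 kb at Dnaic2 (18.1, 18.4 and 18.8) and the 3′ UTR class by 16.8 kb at Hacl1 (22.2, 17.3 and 23.6). Gm36246 led the 5′ UTR class (20.7, 23.0 and 14.4) and Errfi1, a feedback inhibitor of EGF receptor signalling, the downstream class (17.6, 21.6 and 18.8).

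A microRNA of the lineage was singled out after its values were seen. Mir219a-2 encodes miR-219a, a microRNA that promotes oligodendrocyte differentiation, and lies at 29845631 to 29845727 of chromosome 2 (GRCm38). It sat inside a promoter region of 18.6 kb from 29838151 to 29856702, with 17.98, 18.14 and 18.23 covered kb (18.1 ± 0.127 kb) and folds of 25.8, 17.9 and 22.4. The protein-coding genes Cercam and Urm1 overlap the same region. The RefSeq mature sequence of its 5p arm is shown for identification, with the seed, bases 2 to 8, in capitals.
mmu-miR-219a-5p: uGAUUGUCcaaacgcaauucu
The gene is 0.097 kb long, so the block is far wider than the gene, and its spread over the libraries was small.

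The 5 label markers were used to check the cell type. Pdgfra (chr5, 75151322 to 75198206), the growth factor receptor that defines OPCs, had 2 promoter regions with 1.59, 1.21 and 1.88 covered kb in replicates 1, 2 and 3 (1.56 ± 0.336 kb) and folds of 6.14, 5.20 and 5.97. Neither region reached the RefSeq start window printed above, and by covered bases the gene ranked 6185 of 16300. Sox10 (chr15, 79154913 to 79164490), a transcription factor of the whole oligodendrocyte lineage, had 1 region of 16.4 kb with 13.8, 15.3 and 16.3 kb and folds of 19.6, 18.1 and 20.5. That block covered nearly the whole gene and ran past 1 end of it, and Sox10 ranked 397.
Mog (chr17, 37010740 to 37023398), a protein of the outer myelin surface, had 9.78, 9.44 and 11.6 kb in 2 promoter regions (10.3 ± 1.16 kb). Mag (chr7, 30899175 to 30914922), a myelin adhesion protein, had 5.73, 5.54 and 6.02 kb in 3 regions (5.76 ± 0.242 kb). Opalin (chr19, 41061959 to 41077113), a membrane protein of oligodendrocytes, had 13.6, 14.6 and 15.2 kb in 8 regions (14.5 ± 0.790 kb). By position, within the gene and 3 kb of flank, Opalin had 5.74 ± 0.305 kb, Mog 7.86 ± 1.05 kb and Mag 5.37 ± 0.233 kb, while Pdgfra kept its value. All 3 myelin markers were covered more than Pdgfra in every library. The mark is a property of chromatin and not a measure of transcript, and the part of oligodendrocytes among the sorted cells in these values was not tested.

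The lineage lists gave the same picture over more genes, and they hold genes already named here as markers. Among all 21627 RefSeq protein-coding genes, 54.1% had any kept region assigned, 51.3% had a promoter region and 14.1% were multi-region, and the median gene had 0.40 ± 0.0553 covered kb. Since the rule used these peaks, the counts below are descriptions only. Of 20 OPC genes 18 had a region, 15 a promoter region and 10 were multi-region, with a median of 2.14 ± 0.387 kb. Cspg4, the NG2 proteoglycan, had 24.5, 25.1 and 29 kb in 9 regions, and by assigned gene Sox10 and the transcription factor genes Olig1 (14.7 ± 1.70 kb) and Olig2 (12.04 ± 0.619 kb) followed. By position Olig1 had 5.56 ± 0.894 kb and Olig2 8.44 ± 0.388 kb, less than Pcdh15 (13.0 ± 3.34 kb) and Nkx2-2 (11.97 ± 1.39 kb). Ptprz1 and Vcan had no region assigned, although 2 regions with 1.03, 0.700 and 1.39 kb lay within Vcan by position and none within Ptprz1.

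All 20 myelin genes had a promoter region, 16 were multi-region, and their median was 12.8 ± 1.47 kb (11.8, 12.1 and 14.5 kb in replicates 1, 2 and 3). Fa2h, which hydroxylates the fatty acids of myelin lipids, had 31.3, 33.4 and 40.2 kb in 10 regions. Ugt8a, which makes galactosylceramide, had 25.9, 26.7 and 42.0 kb in 22 regions, so its high SD of 9.09 kb rests on replicate 3. Mbp, a major structural protein of compact myelin, had 27.8 ± 2.89 kb and the tight junction gene Cldn11 27.7 ± 2.75 kb, each in 14 regions. By position Ugt8a had 20.4 ± 6.97 kb and Cldn11 15.8 ± 1.75 kb, and Mbp led with 38.0 ± 3.50 kb. Klk6 was the lowest with 0.401, 0.699 and 0.602 kb. Counted by position instead, the median of the OPC list was 6.07 kb and that of the myelin list was 8.0 kb, so the gap between the lists was much smaller. Gpr17, a receptor of committed progenitors, is an example, with 1 assigned region of 3.40 ± 0.0448 kb but 3 regions and 11.3 ± 1.20 kb by position.

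Lists of other brain and vascular cells were covered less. Of 12 astrocyte genes 6 had a region, led by the glutamate transporter gene Slc1a3 (9.56 ± 2.34 kb), S100b (5.22 ± 1.29 kb), Fgfr3 (2.29 ± 0.363 kb) and Aldh1l1 (1.84 ± 0.162 kb), some of which OPCs also express. By position S100b had 2.11 ± 0.745 kb and Aldh1l1 none, with its 4 assigned regions outside the gene. Aqp4, Gfap, Slc1a2, Gja1, Sox9 and Gjb6 had none. Of 12 neuronal genes 4 had a region, Tubb3 (4.59 ± 0.166 kb), Rbfox3 (3.00 ± 0.337 kb), Map2 (1.58 ± 0.766 kb) and Slc17a7 (0.350 ± 0.115 kb). Snap25, Syt1, Slc17a6, Gad1, Gad2, Stmn2, Nefl and Nefm had none.
Of 12 microglial genes 3 had a region, Sall1 (7.05 ± 1.65 kb), Cx3cr1 (3.52 ± 0.621 kb) and C1qb (0.257 ± 0.0847 kb), and P2ry12, Tmem119, Csf1r, Aif1, C1qa, Trem2, Itgam and Ptprc were among those with none. The endothelial list had 5 of 12, led by Pecam1 (3.44 ± 0.115 kb), Tie1 (0.796 ± 0.569 kb), Kdr (0.667 ± 0.297 kb) and Cldn5 (0.469 ± 0.222 kb), with none at Cdh5, Tek, Flt1, Slco1a4, Esam, Sox17 and Ly6c1. Of the fibroblast and mural list 1 of 12 had a region, Col1a1 (1.12 ± 0.222 kb), and Col1a2, Col3a1, Dcn, Lum, Pdgfrb, Rgs5, Kcnj8, Vtn, Myh11, Acta2 and Tagln had none. These counts are by assigned gene, and by position Itgam had 1 region (0.973, 0.730 and 0.873 kb) and Vtn 1 (0.570, 0.315 and 0.633 kb), C1qb and Cldn5 had none, and Kdr had 2.39 ± 0.408 kb. The shares with a region in the astrocyte, neuronal, microglial, endothelial and mural lists all lay under the 54.1% of all protein-coding genes. The astrocyte share, 6 of 12, was the closest to it.

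**Figure D4:**
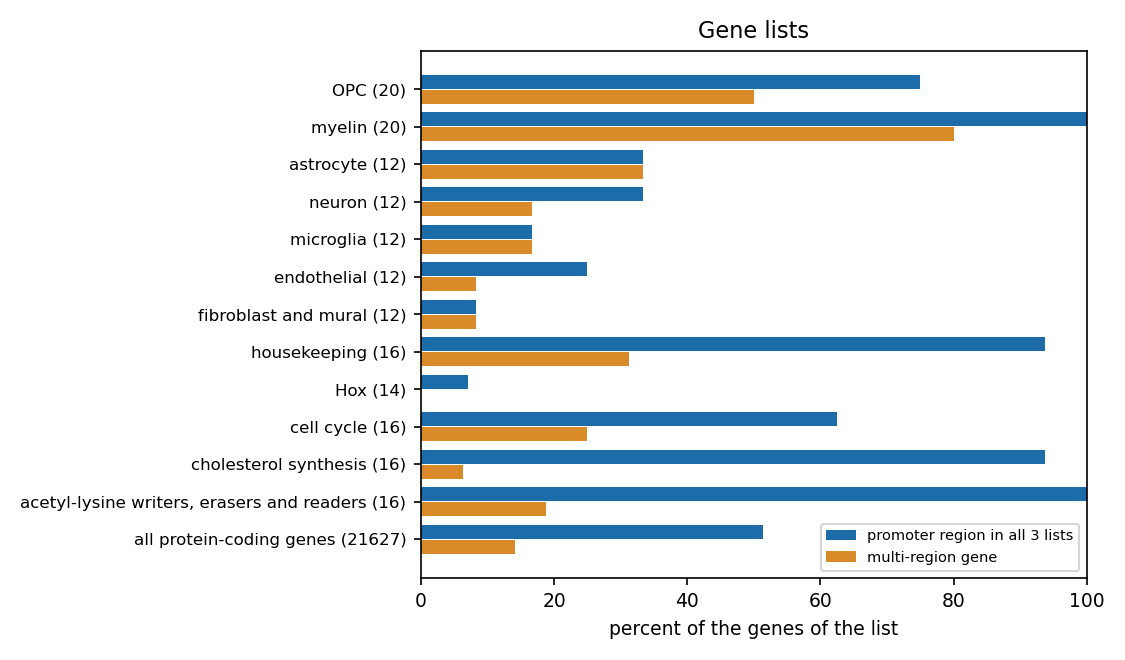
The plot of the gene lists shows, for each of 12 lists (number of genes in parentheses) and all protein-coding genes, the percentage with a promoter region (blue) and the percentage that were multi-region (orange). Myelin genes are high on both (20 and 16 of 20), while the writers, erasers and readers of acetyl-lysine are high only on the first (16 and 3 of 16).

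Among all protein-coding genes with a region, 8255 of 11694 were promoter-only. Of 16 housekeeping genes 15 had a region and 10 were promoter-only, with a median of 1.29 ± 0.277 kb, with Eef1a1 (7.34 ± 1.22 kb), Actb (3.68 ± 0.300 kb) and Ppia (3.13 ± 0.865 kb) among the most covered. By position these 3 genes had 2.71 ± 0.607, 2.70 ± 0.211 and 1.18 ± 0.190 kb. Of 16 genes of cholesterol synthesis, a pathway that supplies the main lipid of myelin, 15 had a region and 14 were promoter-only, with a median of 1.32 ± 0.0470 kb. Mvk was the multi-region member with 14 regions and 15.4, 18.6 and 20.1 kb, but 12 of its regions were distal and by position it had 3 regions and 3.38 ± 0.390 kb. Srebf2 had 4.78 ± 1.18 kb by assigned gene and 11.2 ± 2.16 kb by position, so the order of these 2 genes reversed. Dhcr7 (2.50 ± 0.933 kb) and Hmgcs1 (1.79 ± 0.166 kb) followed, and Nsdhl had none.
All 16 genes for writers, erasers and readers of acetyl-lysine had a promoter region and 13 were promoter-only, with a median of 1.52 ± 0.0326 kb. The deacetylase gene Hdac11 led with 7.40, 7.49 and 9.67 kb in 3 regions, before the acetyltransferase gene Kat2b (5.41 ± 0.484 kb), the bromodomain gene Brd2 (4.24 ± 0.128 kb) and Kat6a (2.71 ± 0.671 kb).

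Of 16 cell cycle genes 11 had a region, with a median of 0.614 ± 0.135 kb. The cyclin genes Ccnd3 (6.96 ± 1.33 kb) and Ccnd1 (4.52 ± 1.83 kb) and the inhibitor gene Cdkn1b (3.03 ± 0.211 kb) led by assigned gene, followed by Aurka (1.08 ± 0.191 kb), while Mki67, Top2a, Ccnb1, Ccnd2 and Cdk1 had none. By position Ccnd1 had 1.33 ± 0.471 kb, with 3 of its 5 assigned regions distal, and lay under Cdkn1b (3.90 ± 0.257 kb), Cdk2 (2.39 ± 0.440 kb) and Cdk6 (1.72 ± 0.0936 kb). Of 14 Hox genes, which pattern the body axis behind the forebrain, 1 had a region, Hoxd1 with 1.08, 1.13 and 1.07 kb. Of 1110 olfactory receptor genes 2 (0.180%) had a promoter region assigned and none was found with a region over a start window. Only 17273 of the 21627 protein-coding genes had such a window, and how many receptor genes had one was not counted. Both families lay far under the background of 51.3% for promoter regions.

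**Figure D5:**
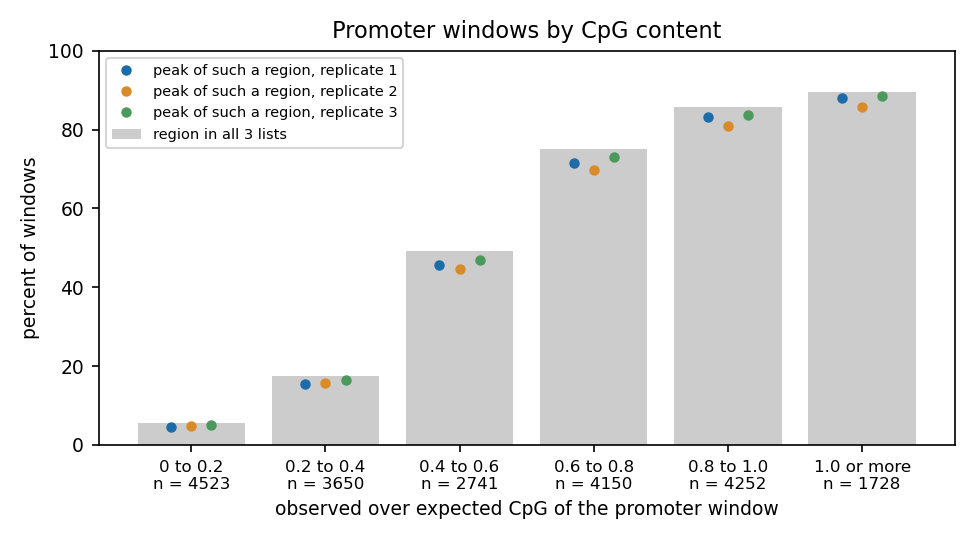
The plot by CG content shows, for RefSeq start windows of protein-coding genes binned by CpG observed-to-expected ratio, the percentage over a kept region (grey bars) and over a peak of such a region in each library (points). The bars rise from 5.46% in the lowest bin to 89.6% in the highest.

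The sequence of the start windows was not used by the rule. RefSeq windows of 300 bases were matched for 17273 protein-coding genes (21044 windows), and 50.1% of the windows lay over a kept region. Covered windows had a median CpG observed-to-expected ratio of 0.796 and uncovered ones 0.250. In bins of rising ratio, from under 0.2 to 1.0 or more, 5.46%, 17.5%, 49.2%, 75.1%, 85.8% and 89.6% of windows were covered. Median ratios were 0.765 for promoter-only genes, 0.718 for multi-region genes with a promoter region, 0.352 for multi-region genes without one and 0.256 for genes with no region.
Among covered windows those poor in CG belonged more often to multi-region genes, 43.3% in the lowest bin against 22.9% in the highest. The myelin genes were of this kind, since 18 of their 21 windows were covered at a median ratio of only 0.304. Microglial windows had a like median of 0.302 and 3 of 11 were covered (27.3%), against 17.5% of all windows with ratios of 0.2 to 0.4. Astrocyte windows had a median of 0.226 and 6 of 12 were covered. Hox windows had a high median of 0.805 and 1 of 7 was covered (14.3%). Cell cycle windows had a median of 0.863 and 7 of 14 were covered (50%), against 85.8% of all windows with ratios of 0.8 to 1.0. Neuronal windows had a median of 0.426 and 2 of 10 were covered (20%), against 49.2% at 0.4 to 0.6. Coverage thus parted from that of all windows of like ratio in several lists, but the windows are few. The myelin and astrocyte lists lay above it, and the Hox, cell cycle and neuronal lists under it. Windows of 1 gene share sequence and the table of starts is not complete.

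Short motifs were searched on both strands of the windows. The Sp/KLF motif GGGCGG was found in 63.9% of promoter-only windows, 60.0% of those of multi-region genes with a promoter region and 26.1% of those of genes with no region, against 46.7% of all. CCGGAAG, an ETS core, was found in 18.6%, 10.4% and 5.63%, against 11.7% of all, and was the motif that differed most between promoter-only and multi-region windows. TATAAA was found in 6.61%, 6.88% and 20.4%, against 12.7% of all. The E-box CAGCTG varied little (15.2%, 16.6% and 15.8%, against 15.7% of all), TGACGTCA was rare (3.02%, 2.82% and 1.38%, against 2.26%), and the SOX motif AACAAAG was found in 3.77%, 3.91% and 6.58%, against 4.99%. GGGCGG and CCGGAAG themselves contain CG, and TGACGTCA does too, so their shares move with the CG content given above. These matches are letters in a window and not binding sites.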

How the data were processed

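H4K8ac was measured in 3 adult libraries. Per the submitters' processing notes, the tools were Trim Galore, Bowtie2 2.4.5, SAMtools, deepTools, MACS2, DiffBind and ChIPseeker, and the build was GRCm38. Their settings are not given in the sources used here. The authors deposited 1 annotated peak list per library with the fold enrichment (a ratio), −log10 p-values and q-values, and a peak score, per the file headers. All deposited peaks had a q-value under 0.05. Read depth is not given, so precision is shown by the SD over 3 libraries.

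Peaks sharing at least 1 bp were merged, and a merged region was kept if all 3 libraries had a peak in it. A region took the class and gene of its widest peak, both assigned by the authors, and the fold of its highest peak per library. Of the 16300 genes, 14145 (86.8%) matched a RefSeq symbol. CpG observed-to-expected is the CG count times the window length over the product of C and G counts. Python 3.11.15, numpy 2.4.6, pandas 2.3.3, scipy 1.17.1 and matplotlib 3.10.9 were used, and scripts were tested on simulated data. No test was made, because the rule used these peaks and there is 1 group. Fold compares classes within a library.

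Named genes are the 5 label markers, the 12 with most regions, the 12 with most covered bases, the 8 widest and 8 highest-fold promoter-only genes, the 8 multi-region genes without promoter region with most regions, up to 4 members per list with most covered bases, members with no region, and the widest and highest-fold region per class. Klk6 and Gpr17, and the genes named by position, were chosen after their values were seen. The members and the 12 lists (178 genes) were chosen with earlier results of these data known. Results for a few genes under this rule are not reported here. Alternatives are given in the closing section. The DiffBind table, the input libraries and the neonatal peak values were not used, except neonatal peaks for the count of merged regions in the series.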

Additional observations from a re-analysis of the deposited data

How the results depend on the processing

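Of 83 recomputed values, 55 moved by less than the spread between libraries or by less than 1.5 times for counts. Some of the 55 could not move. An alternative that changes only the class or gene of regions leaves their number and length as they were. The count by position set 12950 protein-coding genes against 16300 genes of all types. Equal list lengths of 72278 peaks, and assignment by the highest-fold peak, moved none of the 8 main values beyond these limits. Requiring each library to cover over 50% of a region gave 23716 regions, 33.9 Mb per library, 62.6% promoters, 14.3% distal, 3079 multi-region genes and 57.8% of bases on them. Restricting to protein-coding genes gave 30.4 Mb, 63.3% promoters, 8.97% distal, 3049 multi-region genes and 64.4%. A promoter limit of 1000 bp gave 45.1% promoters and 72.8% of bases on multi-region genes, a minimum of 5 regions gave 1554 such genes with 43.9%, merging peaks within 1000 bp gave 16.8% distal and 63.1%, and a q-value limit of 0.005 gave 15.9% and 66.9%. Leaving out 1 replicate gave 44008 to 45961 regions, against 37086 with all libraries. It also gave 48.6% to 50.1% promoters, 16.9% to 17.3% distal and 69.8% to 72.2% of bases on multi-region genes. These runs differ both in the library left out and in how many libraries had to hold a region. By position, an alternative added after seeing the data, the OPC list median was 6.07 kb and the myelin list median 8.0 kb. The causes of the moves were not tested. No paired analysis was possible because the kept regions come from 1 group and no groups were compared. Read depth is unknown, so a region absent from a list may be a region not detectable at that depth.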
